A study of Homo sapiens with 3 samples.

Results

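Circular RNAs (circRNAs) from host genes of the centrosome, the cilium and the microtubule motors were examined in 3 human cell lines: J82 and T24, which are bladder cancer lines, and SV-HUC-1, an immortalized line from the urothelium. The members were all listed circRNAs whose host gene symbol falls in the families CEP, CCDC, KIF, DYNC, DNAH, IFT, BBS, TTBK, TTLL, TTC, CLASP, MAP1, MAP4, MAP7, PCM1, PCNT, CDK5RAP, CKAP, TUBGCP, NPHP, SPAG or MAPRE. The rule found 297 circRNAs of 113 host genes, out of 10562 circRNAs and 4231 annotated host genes in the whole table, and used no measured value. KIAA0586, which the rule also names, was not among the listed host genes. Each line gave 1 library from total RNA depleted of ribosomal RNA and treated with RNase R, an exonuclease that digests linear RNA, so all 3 lines share that treatment. No label names a drug, a gene edit or a time point, and each group is 1 line with 1 library.

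The symbol families do not all match the working name. Of the 113 host genes, 23 belong to the centrosome and centriole, 9 to the cilium, 5 are dyneins, 18 are kinesins, 9 bind microtubules or their plus ends, and 3 modify tubulin or phosphorylate tau and tubulin. The other 46 carry the names CCDC, TTC or SPAG, or are CDK5RAP1. CCDC and TTC stand for a coiled coil and a tetratricopeptide repeat, which say nothing of shared function: CDK5RAP1 modifies mitochondrial transfer RNA and CCDC132 encodes a subunit of an endosomal tethering complex, whereas TTC8 is a subunit of the BBSome and TTC21B of the intraflagellar transport train. These 46 are called the symbol class below and are kept apart from the groups with a shared role.

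The centrosome is a pair of centrioles in a protein matrix that nucleates microtubules through gamma-tubulin ring complexes, and the mother centriole can dock at the membrane and grow a primary cilium. Kinesins mostly walk towards microtubule plus ends and dyneins towards minus ends, and the cilium uses kinesin-2 outward and dynein-2 inward to move its transport trains. A circRNA forms when a splice donor joins an upstream acceptor, so a host gene can give many circles, and a read across that junction counts the circle and not the linear messenger RNA. Ciliary genes are often bound by RFX factors at the X-box, and many mitotic genes carry a cell cycle homology region (CHR) read by the MuvB complexes.

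Promoters of 3 host genes are printed here because their circRNA totals are described below and because they hold letters of those motifs. Of the 113 host genes, 99 matched the RefSeq promoter table (GRCh38.p14, 250 bases before to 50 after the start) by symbol and 3 by synonym, each on the chromosome of its circles, which gave 130 promoters. The X-box was searched only as its half-site GTTGCC, labelled X-box core here, on both strands and without regard to overlap with the other motif. This half-site was present in 29 member promoters (22.3%), against 12.6% of 22199 promoters of protein-coding genes. It occurred in 4 of 8 cilium promoters, those of BBS1, IFT46, IFT81 and IFT88. Other groups held it in 2 of 4 tubulin modifying and tau kinase, 7 of 25 centrosome and 4 of 19 kinesin promoters. The rest were 1 of 6 dynein, 1 of 15 microtubule binding and 10 of 53 symbol class promoters. The CHR letters TTTGAA were present on either strand in 27 member promoters (20.8%), against 12.4% of protein-coding promoters. They were in 7 of 15 microtubule binding, 7 of 19 kinesin, 7 of 25 centrosome and 6 of 53 symbol class promoters. In the cilium, dynein, and tubulin modifying and tau kinase groups, 0 promoters held them. A gene can count more than once: the 7 microtubule binding promoters came from 5 of 9 genes. Their GC content was 36% and 46% in MAP7, 50% and 35.3% in CLASP2, 35.3% in MAP4, 63% in CKAP5 and 70% in MAPRE1. The median over protein-coding promoters was 62.3%. Capitals mark the motif or its reverse complement, and a match is a description of the letters, not a bound site.
SPAG16, X-box core, chr2:213284214-213284513, plus strand: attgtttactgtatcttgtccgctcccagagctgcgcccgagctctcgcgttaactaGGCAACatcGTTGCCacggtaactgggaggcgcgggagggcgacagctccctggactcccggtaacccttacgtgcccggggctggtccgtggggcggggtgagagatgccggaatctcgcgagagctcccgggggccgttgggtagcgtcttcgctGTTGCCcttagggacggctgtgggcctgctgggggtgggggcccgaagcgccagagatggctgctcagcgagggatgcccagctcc
DYNC2H1, X-box core, chr11:103109176-103109475, plus strand: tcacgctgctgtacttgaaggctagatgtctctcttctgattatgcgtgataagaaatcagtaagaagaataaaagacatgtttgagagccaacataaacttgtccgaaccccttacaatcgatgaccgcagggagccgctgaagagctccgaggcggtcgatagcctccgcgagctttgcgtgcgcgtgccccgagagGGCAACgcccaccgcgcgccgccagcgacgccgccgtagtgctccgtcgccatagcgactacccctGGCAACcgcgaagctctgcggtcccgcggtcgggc
KIF23, CHR, chr15:69414099-69414398, plus strand: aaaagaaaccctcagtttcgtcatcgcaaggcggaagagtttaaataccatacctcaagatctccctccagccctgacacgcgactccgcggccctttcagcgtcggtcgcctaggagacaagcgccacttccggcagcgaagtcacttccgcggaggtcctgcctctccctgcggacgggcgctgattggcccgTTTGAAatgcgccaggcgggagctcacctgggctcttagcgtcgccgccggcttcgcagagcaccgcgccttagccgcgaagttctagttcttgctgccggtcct

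The SPAG16 promoter held 3 matches to the X-box half-site, and that of DYNC2H1 held 2. Full X-boxes were not searched for, so these matches do not show one. Host genes with the core in a promoter had a median log2 fold of -0.12 in J82 and 0.08 in T24 against SV-HUC-1 (17 and 19 genes tested), and those without it 0.00 in J82 and 0.09 in T24 (46 and 49 genes). Member promoters held a median of 28.5 CpG dinucleotides, against 21 over protein-coding promoters.

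Members made up a small part of each library, largest in T24. They took 3515 of the 126041 circRNA reads in J82 (2.79%, exact 95% interval 2.70 to 2.88), 3246 of 108574 in T24 (2.99%, 2.89 to 3.09) and 3225 of 128055 in SV-HUC-1 (2.52%, 2.43 to 2.61). Summed CPM, the deposited read counts scaled to a common library size with TMM factors, came to 74.3 in J82, 76.0 in T24 and 64.7 in SV-HUC-1. More of the T24 reads lay in few circles. The 10 members of highest mean CPM held 25.8% of member reads in J82, 31.7% in T24 and 24.8% in SV-HUC-1. All intervals here cover counting error only, since the reads carry no molecular identifiers and there is 1 library per line. Of the 297 member circRNAs, 267 were detected in J82, 262 in T24 and 266 in SV-HUC-1, and 226 (76.1%) in all 3 lines, against 69.9% of all listed circRNAs. Only 123 members reached 10 reads in any line; the other 174 had between 5 and 9 reads in their best line, so most members are too shallow for a fold of their own.

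The 3 lines differ in identity beyond disease state. Of a list of 10 genes that mark epithelial or mesenchymal and other cells, chosen with their values known, 5 epithelial genes (CDH1, EPCAM, ESRP1, GRHL2 and LAMA3) had 0 circular reads in T24, between 7 and 182 in J82 and between 20 and 371 in SV-HUC-1. The other epithelial genes were detected in T24: KRT7 had 17 reads in J82, 3 in T24 and 7 in SV-HUC-1, and PPARG had 101 reads in J82, 25 in T24 and 65 in SV-HUC-1. Of the rest, ZEB1 had 7 reads in J82, 16 in T24 and 2 in SV-HUC-1, FLI1 had 11 reads in J82, 44 in T24 and 33 in SV-HUC-1, and FN1 had 6 reads in J82, 4 in T24 and 73 in SV-HUC-1. The part of these differences in the results below was not tested. In bulk libraries, fewer cells with a circRNA and fewer molecules per cell cannot be told apart, nor can circle formation, stability and host gene transcription.

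A member was called higher or lower when log2(CPM + 0.0234), where the added value is 1 read in T24, differed by at least 1 and at least 1 of the 2 libraries had 10 reads. With 1 library per line no difference has a replicate check, and these calls describe libraries. In J82 against SV-HUC-1, 107 member circRNAs could be compared: 26 were higher (24.3%, against 22.9% of all circRNAs compared) and 16 were lower (14.95%, against 23.3%). In T24 against SV-HUC-1, 24 of 104 were higher (23.1%, background 21.4%) and 20 lower (19.2%, background 27.3%). Median log2 folds of members, pooled over the groups, were 0.20 in J82 and 0.15 in T24, where those of all circRNAs were -0.01 and -0.14. By group, J82 medians were -0.59 in kinesins, -0.53 in cilium genes, -0.39 in microtubule binding, 0.16 in centrosome genes and 0.77 in the symbol class. They were 0.86 in dyneins and 1.22 in the tubulin modifying and tau kinase group. In T24, group medians ran from -0.39 in cilium genes to 0.62 in dyneins. In J82 against T24, 26 of 109 were higher (23.9%, background 25.1%) and 27 lower (24.8%, background 19.5%), with medians of 0.00 for members and 0.13 for all. Pooled over the groups, shares of higher circRNAs were thus near the background. Pooled shares of lower ones stood under it in each cancer line against SV-HUC-1, and these comparisons share that library. In J82 against SV-HUC-1, lower circles were 3 of 10 in kinesins (30%) and 3 of 11 in cilium genes (27.3%), above the background. They were 6 of 34 in centrosome genes, 1 of 8 in microtubule binding and 3 of 35 in the symbol class. Dyneins and the tubulin modifying and tau kinase group had 0 lower. In T24, only microtubule binding exceeded the background, at 3 of 9 lower (33.3%).

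**Figure D1:**
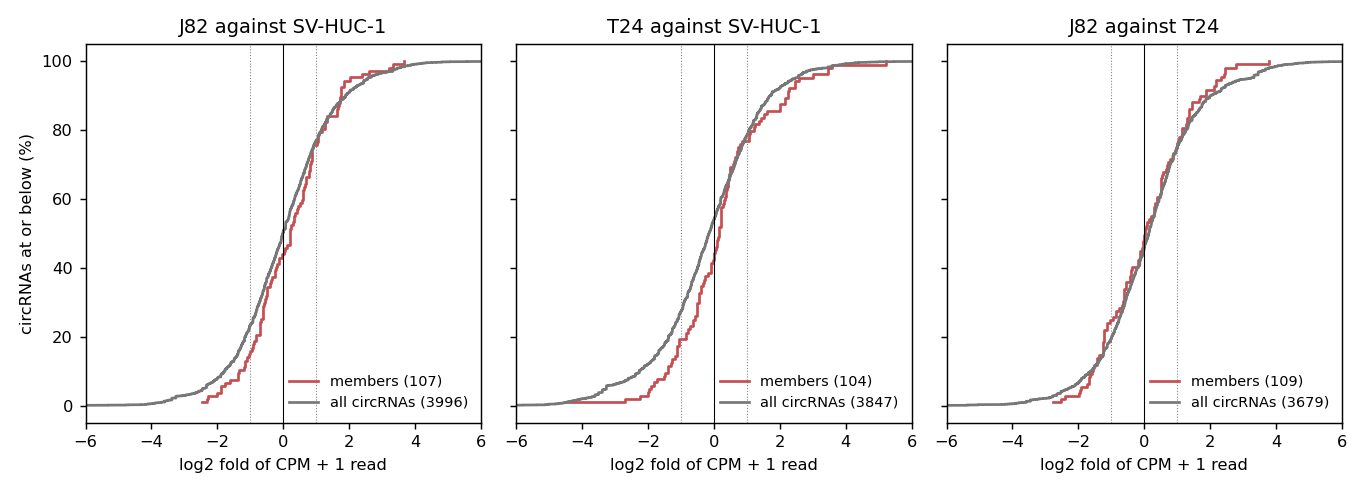
Cumulative share (percent) of circRNAs at or below each log2 fold of CPM plus 1 read, for members (red) and all circRNAs compared (grey) in each of the 3 comparisons; dotted lines mark a 2-fold difference. The member curve starts further right at the low end in both comparisons with SV-HUC-1, where 14.95% and 19.2% of members were at least 2-fold lower, against 23.3% and 27.3% of all circRNAs.

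Host gene totals, summed over the listed circles of each gene, gave shares of calls under the background in 5 of 6 counts. For them, J82 had 10 of 72 higher than SV-HUC-1 (13.9%, background 18.4%) and 10 lower (13.9%, background 19.5%). T24 had 12 of 76 higher (15.8%, background 18.7%) and 9 lower (11.8%, background 22.1%). In J82 against T24, 12 of 75 were higher (16.0%, background 20.7%) and 19 lower (25.3%, background 16.6%). Medians of member host genes lay between 0.00 and 0.08 on the log2 scale in the 3 comparisons, and 34 of the 113 had under 10 summed reads in every line. In both cancer lines, 4 of 69 host genes compared in both were higher, namely KIF3B, TTBK2, TTC28 and TUBGCP4, with a background of 7.12%. PCM1 alone was lower in both, where 12.1% of all host genes were.

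**Figure D2:**
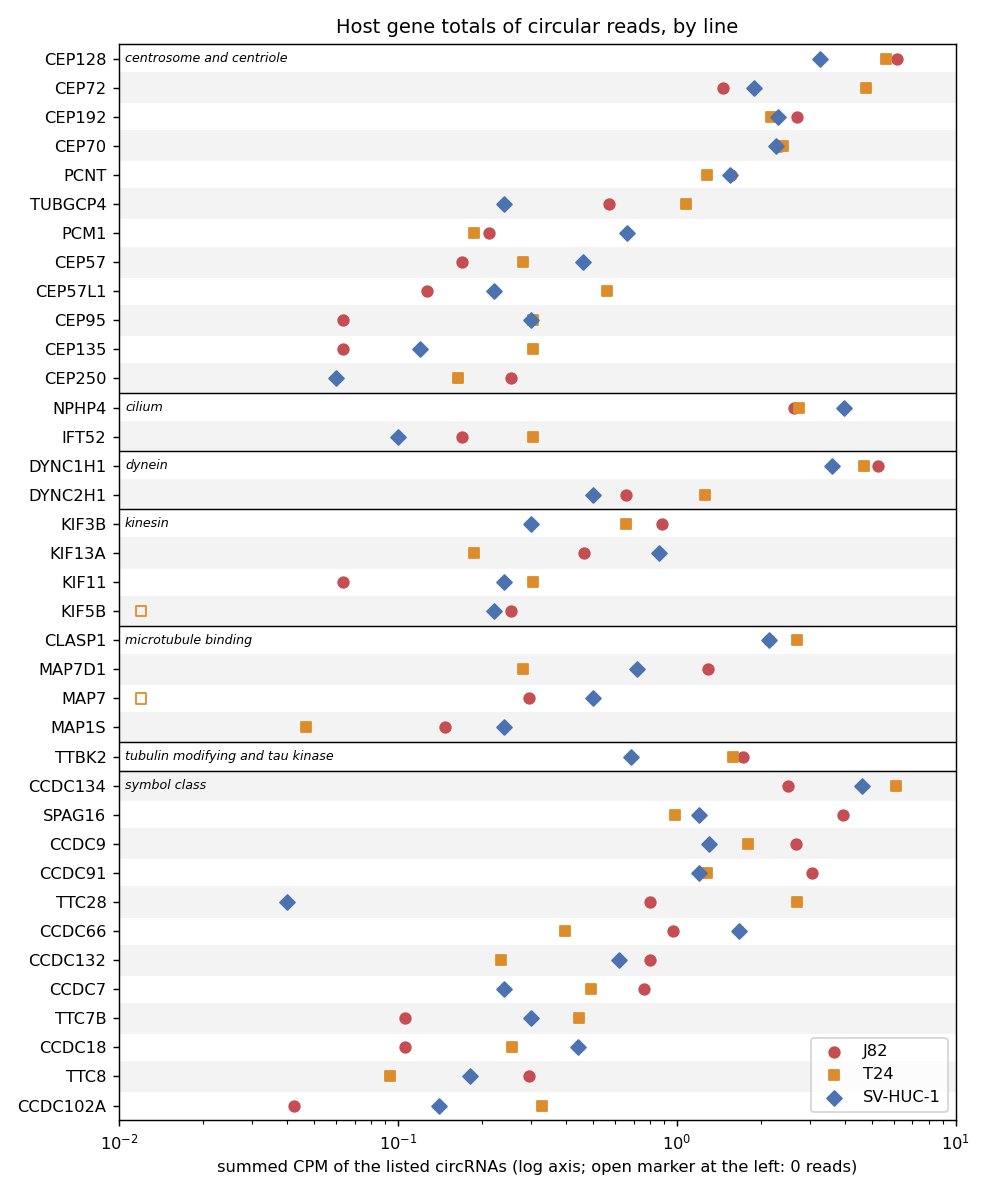
Summed CPM of the listed circRNAs (log axis) for the named host genes in J82, T24 and SV-HUC-1, ordered by role; open markers at the left edge stand for 0 reads. TTC28 stands at 0.803 CPM in J82, 2.69 in T24 and 0.0401 in SV-HUC-1, whereas CEP70, CEP192 and CLASP1 nearly coincide in the 3 lines.

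Centrosome and centriole genes gave 74 circRNAs with 1037 reads in J82, 1040 in T24 and 912 in SV-HUC-1. By host total, 2 of 19 genes compared were higher (10.53%, background 18.4%) and 4 lower (21.1%, background 19.5%) in J82 than in SV-HUC-1. In T24, 4 of 19 were higher (21.1%, background 18.7%) and 1 lower (5.26%, background 22.1%). CEP128, a protein of the mother centriole's subdistal appendages, led with 291 reads in J82, 241 in T24 and 163 in SV-HUC-1. Its ratio of CPM to SV-HUC-1 was 1.88 in J82 (1.55 to 2.29) and 1.72 in T24 (1.41 to 2.12), both under the 2-fold line with intervals above 1. CEP192, which recruits the centriole duplication machinery and matrix proteins, gave 128 reads in J82, 93 in T24 and 115 in SV-HUC-1. CEP70 gave 111 reads in J82, 103 in T24 and 113 in SV-HUC-1. All 4 intervals of CEP192 and CEP70 against SV-HUC-1 included 1.

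PCM1 and TUBGCP4 differed from SV-HUC-1 in opposite directions. PCM1, the scaffold of centriolar satellites, had 10 reads in J82, 8 in T24 and 33 in SV-HUC-1. Its ratios were 0.319 in J82 (0.140 to 0.663) and 0.283 in T24 (0.113 to 0.624), so both cancer lines lay below SV-HUC-1. The widest gap among its 3 circles was that of hsa_circ_0002887 (hg19 chr8:17847367-17851128, plus strand), with 2 reads in J82, 5 in T24 and 17 in SV-HUC-1. TUBGCP4, a subunit of the gamma-tubulin ring complex, went the other way with 27 reads in J82, 46 in T24 and 12 in SV-HUC-1. The ratio was 2.37 in J82 (1.16 to 5.14) and 4.47 in T24 (2.33 to 9.27). TUBGCP3, another subunit of that complex, had 40 reads in J82, 56 in T24 and 44 in SV-HUC-1 and was within 2-fold in each line. All 4 TUBGCP4 circles had more reads in each cancer line than in SV-HUC-1, from 5 reads in J82, 4 in T24 and 2 in SV-HUC-1 (hsa_circ_0034953) to 8 reads in J82, 24 in T24 and 5 in SV-HUC-1 (hsa_circ_0034970, chr15:43690235-43694048).

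Further centrosome genes were called in 1 line. CEP250, which links the paired centrioles, had 12 reads in J82, 7 in T24 and 3 in SV-HUC-1, with a J82 ratio of 4.21 (1.14 to 23.3). In J82, CEP57 was lower at 8 reads against 23 in SV-HUC-1 (0.366, 0.142 to 0.849), and CEP95 at 3 reads against 15 (0.211, 0.0391 to 0.745). The call on CEP170, at 4 reads against 10, had an interval that included 1 (0.0965 to 1.46). CEP57L1, a relative of CEP57, had 6 reads in J82, 24 in T24 and 11 in SV-HUC-1. T24 was thus higher than SV-HUC-1 (2.54, with an interval above 1), and the J82 ratio to T24 was 0.226 (0.0755 to 0.567). CEP135, a cartwheel protein, gave 3 reads in J82, 13 in T24 and 6 in SV-HUC-1; J82 was below T24 (0.208, 0.0381 to 0.759), but the interval of T24 against SV-HUC-1 included 1. Among the 19 centrosome genes compared between J82 and T24, 0 were at least 2-fold higher in J82 (background 20.7%) and 4 were lower (21.1%, background 16.6%).

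CEP72, a satellite protein that helps hold the spindle poles together, differed in level and in the make-up of its circles. Its total was 69 reads in J82, 203 in T24 and 94 in SV-HUC-1, a T24 ratio of 2.52 (1.96 to 3.25). The higher circle was hsa_circ_0071653 (chr5:619104-620376, plus strand), with 57 reads in J82, 174 in T24 and 45 in SV-HUC-1, a T24 ratio of 4.51 (3.23 to 6.41). A longer circle from the same start, hsa_circ_0071654 (chr5:619104-624694), went the other way with 10 reads in J82, 15 in T24 and 39 in SV-HUC-1, ratios of 0.270 in J82 (0.120 to 0.551) and 0.449 in T24 (0.230 to 0.832). The short circle therefore took 82.6% of CEP72 circular reads in J82 (71.6 to 90.7), 85.7% in T24 (80.1 to 90.2) and 47.9% in SV-HUC-1 (37.5 to 58.4). Neither share interval of a cancer line overlaps that of SV-HUC-1.

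The 9 CEP128 circles also split. The most read, hsa_circ_0102727 (chr14:81362061-81372425, minus strand), had 104 reads in J82, 98 in T24 and 73 in SV-HUC-1 and was within 2-fold. hsa_circ_0007332 (chr14:80963811-80997230) had 50 reads in J82, 70 in T24 and 16 in SV-HUC-1, ratios of 3.29 in J82 (1.84 to 6.19) and 5.10 in T24 (2.93 to 9.41). With 39 reads in J82, 19 in T24 and 7 in SV-HUC-1, hsa_circ_0032822 had ratios of 5.87 in J82 (2.60 to 15.6) and 3.17 in T24 (1.27 to 8.91). In contrast, hsa_circ_0032815, which shares its end with hsa_circ_0007332, had 2 reads in J82, 4 in T24 and 11 in SV-HUC-1, with a J82 ratio of 0.192 (0.0206 to 0.878). Its T24 log2 fold was -1.06, and the interval of that ratio included 1. The host total near 2-fold thus sums circles from well above to well below it.

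PCNT and CEP350 totals stayed within 2-fold of SV-HUC-1 while single circles of theirs did not. PCNT, pericentrin, the large scaffold of the pericentriolar matrix, had 74 reads in J82, 55 in T24 and 77 in SV-HUC-1. Its main circle hsa_circ_0002903 (chr21:47768925-47769734) took 44.6% of them in J82 (33.0 to 56.6), 60.0% in T24 (45.9 to 73.0) and 75.3% in SV-HUC-1 (64.2 to 84.4). The share of hsa_circ_0002715 was 37.8% in J82 (26.8 to 49.9), 18.2% in T24 (9.08 to 30.9) and 10.4% in SV-HUC-1 (4.59 to 19.4), from 28 reads in J82, 10 in T24 and 8 in SV-HUC-1. In J82 the 2 circles were thus close to equal, while the first led in SV-HUC-1. For CEP350, a centriolar protein that also binds microtubules, hsa_circ_0003942 (chr1:179972308-179975702) had 49 reads in J82, 9 in T24 and 24 in SV-HUC-1. It was higher than SV-HUC-1 in J82 (2.15, 1.29 to 3.67) and lower in T24 (0.437, 0.179 to 0.975). hsa_circ_0015491 of the same gene had 4 reads in J82, 10 in T24 and 0 in SV-HUC-1, a T24 ratio of 3.89 to a floor of 3 reads.

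**Figure D3:**
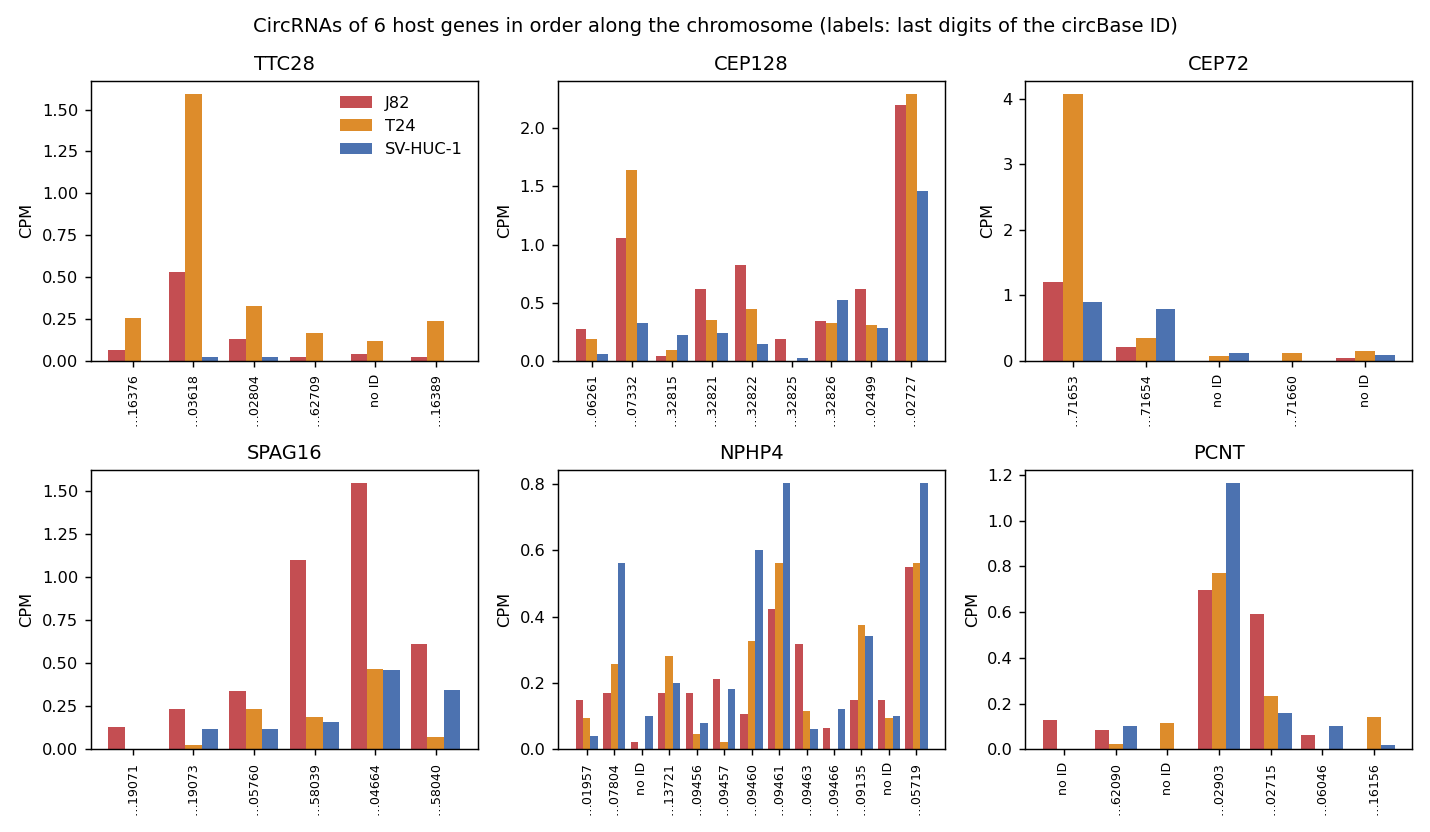
CPM of each listed circRNA of TTC28, CEP128, CEP72, SPAG16, NPHP4 and PCNT in J82, T24 and SV-HUC-1, ordered by chromosome position; each bar is 1 library, with no error bar. The TTC28 circles are near 0 in SV-HUC-1 throughout, and SPAG16 circles are highest in J82. CEP128, CEP72 and NPHP4 hold circles called in opposite directions against SV-HUC-1 in a cancer line. In J82, PCNT holds a circle called higher, while its main circle was lower but within 2-fold.

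Cilium genes gave 26 circRNAs, with 204 reads in J82, 222 in T24 and 298 in SV-HUC-1. NPHP4, of the transition zone at the ciliary base, held 13 of them, the most of any member host gene. Its total was 125 reads in J82, 117 in T24 and 199 in SV-HUC-1, ratios of 0.662 in J82 (0.525 to 0.832) and 0.686 in T24 (0.541 to 0.866), below 1 but within 2-fold. BBS9, of the BBSome coat complex, was level at 55 reads in J82, 66 in T24 and 61 in SV-HUC-1. IFT52, of the IFT-B transport train, had 8 reads in J82, 13 in T24 and 5 in SV-HUC-1 and was called higher in T24 (3.03, 1.01 to 10.9). The remaining IFT genes and BBS1 had at most 12 reads in any line. IFT172 was detected in T24 alone (6 reads), and 0 reads in J82 and SV-HUC-1 allow up to 3 reads in each.

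NPHP4 circles built from shared splice sites differed in opposite directions. From the start at position 6007163 of chromosome 1, the shortest circle hsa_circ_0009460 (to 6012896) had 5 reads in J82, 14 in T24 and 30 in SV-HUC-1, a J82 ratio of 0.176 (0.0532 to 0.457). The longest from that start, hsa_circ_0009463 (to 6046387), had 15 reads in J82, 5 in T24 and 3 in SV-HUC-1, a J82 ratio of 5.27 (1.49 to 28.4). The middle one, hsa_circ_0009461, had 20 reads in J82, 24 in T24 and 40 in SV-HUC-1 and was within 2-fold. In J82 the long circle thus exceeded the short one, and in SV-HUC-1 the short one was ahead. From the start at 5987708, hsa_circ_0007804 was lower in both cancer lines, with 8 reads in J82, 11 in T24 and 28 in SV-HUC-1 (0.301, 0.119 to 0.678 in J82; 0.458, 0.206 to 0.949 in T24), while hsa_circ_0009457, over 58679 bases, had 10 reads in J82, 1 in T24 and 9 in SV-HUC-1. For BBS9, hsa_circ_0008336 (chr7:33397466-33427756) led in J82 and T24 with 19 and 32 reads, against 13 in SV-HUC-1, where hsa_circ_0003162 led with 31 reads.

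Dynein genes gave 19 circRNAs, with 313 reads in J82, 292 in T24 and 248 in SV-HUC-1. The heavy chain of cytoplasmic dynein, DYNC1H1, accounts for most of them through hsa_circ_0002398 (chr14:102506572-102507010, plus strand). That circle is the most abundant member by mean CPM, at 4.55 CPM in J82, 4.26 in T24 and 3.33 in SV-HUC-1, from 215 reads in J82, 182 in T24 and 166 in SV-HUC-1. It held 86.0% of the gene's circular reads in J82, 90.5% in T24 and 92.2% in SV-HUC-1. The DYNC1H1 total was 1.46 times that of SV-HUC-1 in J82 (1.203 to 1.78) and 1.30 times in T24 (1.06 to 1.60), within 2-fold.

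DYNC2H1, the heavy chain of the ciliary dynein-2, whose promoter is printed above, had 8 circles with 31 reads in J82, 54 in T24 and 25 in SV-HUC-1. T24 was higher than SV-HUC-1 (2.52, 1.54 to 4.22), and J82 was below T24 (0.519, 0.322 to 0.821) without reaching 2-fold on the log2 scale used. Its circle hsa_circ_0094746 (chr11:103090643-103093815) had 5 reads in J82, 14 in T24 and 2 in SV-HUC-1 (T24 ratio 8.16, 1.88 to 74.0). hsa_circ_0094761 had 2 reads in J82, 10 in T24 and 1 in SV-HUC-1. Of the light intermediate chains, DYNC1LI1 had 20 reads in J82, 13 in T24 and 27 in SV-HUC-1, and DYNC1LI2 had 8 reads in J82, 18 in T24 and 16 in SV-HUC-1, with J82 below T24 (0.401, 0.151 to 0.970). The axonemal DNAH14 had 4 reads in J82, 6 in T24 and 0 in SV-HUC-1.

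Kinesin genes gave 40 circRNAs, with 292 reads in J82, 317 in T24 and 370 in SV-HUC-1. Among host totals compared with SV-HUC-1, 1 of 11 was higher (9.09%, background 18.4%) and 2 lower (18.2%, background 19.5%) in J82. In T24, 2 of 12 were higher (16.7%, background 18.7%) and 2 lower (16.7%, background 22.1%). KIF2C, a mitotic microtubule depolymerase, led with 95 reads in J82, 89 in T24 and 83 in SV-HUC-1 and did not differ by 2-fold between any lines. KIF3B, a subunit of the kinesin-2 that carries intraflagellar transport, had 42 reads in J82, 28 in T24 and 15 in SV-HUC-1. It was higher in J82 (2.95, 1.60 to 5.73) and in T24 (2.18, 1.12 to 4.39). Most of its reads came from hsa_circ_0002302 (chr20:30904020-30904677), with 36 reads in J82, 28 in T24 and 15 in SV-HUC-1.

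Among transport kinesins, KIF5B and KIF13A were lowest in T24. KIF5B, the ubiquitous heavy chain of conventional kinesin, had 12 reads in J82, 0 in T24 and 11 in SV-HUC-1. T24 was at least 3.14-fold lower than SV-HUC-1 and J82 at least 3.61-fold higher than T24, against a floor of 3 reads. KIF13A, which moves endosomal cargo, had 22 reads in J82, 8 in T24 and 43 in SV-HUC-1, a T24 ratio of 0.217 (0.0881 to 0.467). Its circle hsa_circ_0075748 (chr6:17772138-17779330) had 8 reads in J82, 3 in T24 and 21 in SV-HUC-1 and was lower in both cancer lines. KIF16B, an early endosome motor, differed in the other line: it had 9 reads in J82, 21 in T24 and 24 in SV-HUC-1, with J82 below SV-HUC-1 (0.395, 0.162 to 0.880).

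Among mitotic kinesins, KIF11, KIF18A and KIF23 were called lower in J82 than in T24. KIF11, which pushes spindle poles apart, had 3 reads in J82, 13 in T24 and 12 in SV-HUC-1, ratios of 0.263 to SV-HUC-1 (0.0477 to 0.976) and 0.208 to T24 (0.0381 to 0.759). KIF23, the midzone motor of cytokinesis whose promoter is printed above, had 23 reads in J82, 47 in T24 and 37 in SV-HUC-1, with J82 below T24 (0.442, 0.256 to 0.743). Its circle hsa_circ_0003166 (chr15:69728476-69729061) had 13 reads in J82, 29 in T24 and 14 in SV-HUC-1 and exceeded SV-HUC-1 in T24 (2.42, 1.24 to 4.95). KIF18A, which dampens chromosome movement, had 6 reads in J82, 13 in T24 and 6 in SV-HUC-1, and its intervals included 1. KIF4A, with 13 reads in J82, 21 in T24 and 24 in SV-HUC-1, and KIF15, with 18 reads in J82, 18 in T24 and 26 in SV-HUC-1, were within 2-fold. KIF24, a centriolar kinesin, had a level total of 30 reads in J82, 35 in T24 and 43 in SV-HUC-1, but hsa_circ_0007356 had 7 reads in J82, against 20 in T24 and 21 in SV-HUC-1. KIF26A and KIF27 were detected in SV-HUC-1 alone, with 9 and 5 reads.

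Genes of microtubule binding proteins gave 25 circRNAs, with 274 reads in J82, 220 in T24 and 274 in SV-HUC-1. Plus-end and growth factors were level: CLASP1 had 101 reads in J82, 115 in T24 and 107 in SV-HUC-1, CLASP2 had 49 reads in J82, 40 in T24 and 49 in SV-HUC-1, and CKAP5, a microtubule polymerase, had 17 reads in J82, 27 in T24 and 20 in SV-HUC-1. Within CLASP2, hsa_circ_0064784 (chr3:33661094-33686395) had 8 reads in J82, 14 in T24 and 2 in SV-HUC-1 (T24 ratio 8.16, 1.88 to 74.0). Within CKAP5, hsa_circ_0095889 had 1 read in J82, 8 in T24 and 10 in SV-HUC-1 (J82 ratio 0.105, 0.00243 to 0.741).

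MAP7, which recruits conventional kinesin to microtubules, gave 1 circle, hsa_circ_0130789 (chr6:136709530-136710655, minus strand), with 14 reads in J82, 0 in T24 and 25 in SV-HUC-1. T24 was at least 7.15-fold lower than SV-HUC-1, and J82 at least 4.22-fold higher than T24. Its relative MAP7D1 had 61 reads in J82, 12 in T24 and 36 in SV-HUC-1, with T24 below SV-HUC-1 (0.389, 0.184 to 0.765) and J82 above T24 (4.59, 2.45 to 9.37). MAP7D3 had 6 reads in J82, 10 in T24 and 5 in SV-HUC-1 and no interval that left out 1. MAP1S had 7 reads in J82, 2 in T24 and 12 in SV-HUC-1, lower in T24 than in SV-HUC-1 (0.194, 0.0211 to 0.873). MAP7 and KIF5B were thus both at 0 in T24, as were 5 of the 10 marker genes above, whose part in this result was not tested.

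**Figure D4:**
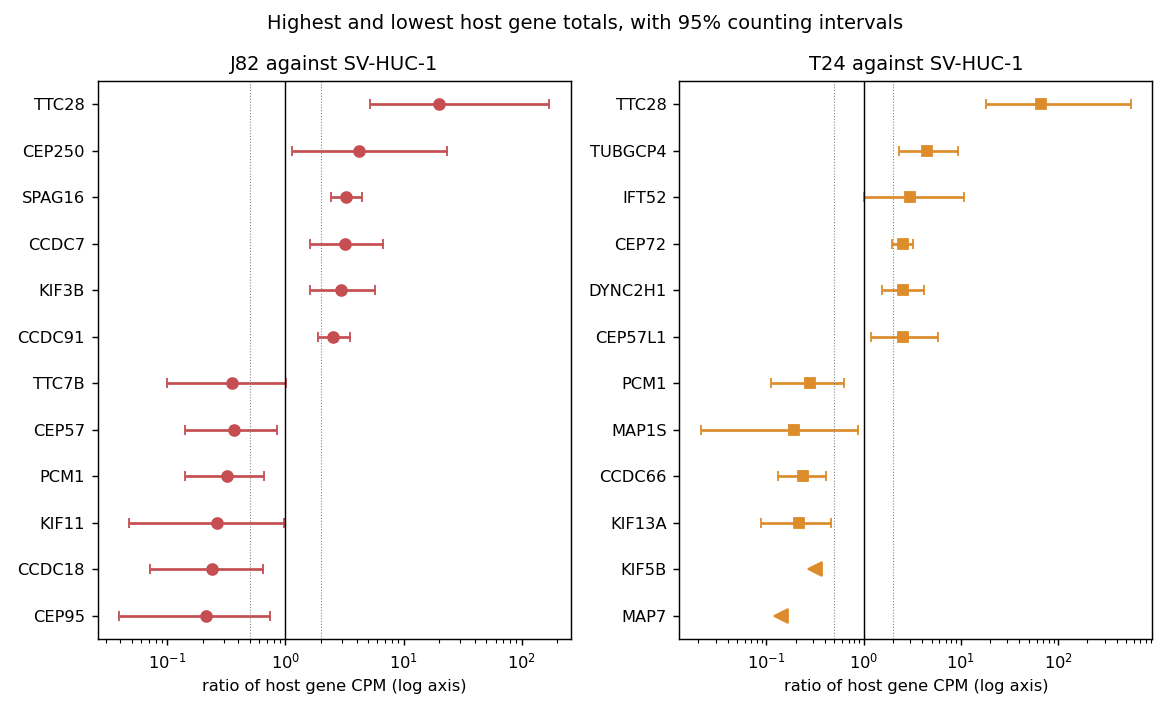
Ratio of host gene CPM (log axis) to SV-HUC-1 for the 6 highest and 6 lowest member host genes in J82 (left) and T24 (right), with exact 95% counting intervals as bars; triangles mark floors for genes with 0 reads in T24. TTC28 is at the top in both lines, with ratios of 20.02 and 67.1, and PCM1 is the gene among the 6 lowest in both.

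TTBK2, the kinase that starts cilium assembly at the mother centriole, was higher in both cancer lines. Its 8 circles summed to 82 reads in J82, 68 in T24 and 34 in SV-HUC-1, ratios of 2.54 in J82 (1.68 to 3.91) and 2.33 in T24 (1.52 to 3.63). The main circle hsa_circ_0008319 (chr15:43120125-43132631, minus strand) had 50 reads in J82, 41 in T24 and 15 in SV-HUC-1, ratios of 3.51 in J82 (1.94 to 6.73) and 3.19 in T24 (1.73 to 6.20). TTBK2 and TUBGCP4, the pair of chromosome 15 genes among the 4 host genes higher in both cancer lines, lie near each other. TTLL5, which adds glutamate chains to tubulin, had 64 reads in J82, 31 in T24 and 40 in SV-HUC-1 and was within 2-fold.

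In the symbol class, TTC28 stood apart. This gene of a large tetratricopeptide repeat protein had 38 reads in J82, 115 in T24 and 2 in SV-HUC-1, ratios of 20.02 in J82 (5.17 to 171) and 67.1 in T24 (18.1 to 560). J82 was also below T24 (0.298, 0.201 to 0.434). All 6 circles shared the pattern: hsa_circ_0003618 (chr22:28692185-28693840, minus strand) had 25 reads in J82, 68 in T24 and 1 in SV-HUC-1, hsa_circ_0002804 from the same start had 6 reads in J82, 14 in T24 and 1 in SV-HUC-1, and the other 4 had 1 to 3 reads in J82, 5 to 11 in T24 and 0 in SV-HUC-1. The circles came from 3 separate stretches of the gene between 28559079 and 29029962. hsa_circ_0003618 was the only member to pass in the test of both cancer lines together with edgeR's quasi-likelihood test (log2 fold 5.54, adjusted p = 0.00696), which calls 1.02% of circRNAs. limma on the log2 values gave it a log2 fold of 4.44 ± 1.02 (SE) and an adjusted p of 0.817.

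SPAG16, a protein of the axoneme's central pair, was high in J82. It had 187 reads in J82, 42 in T24 and 60 in SV-HUC-1, a J82 ratio of 3.28 to SV-HUC-1 (2.44 to 4.47) and 4.02 to T24 (2.86 to 5.76). Its 6 circles include 5 from a shared start at chr2:214174782 over spans of 7298 to 65061 bases. Of these, hsa_circ_0058039 (to 214215369) had 52 reads in J82, 8 in T24 and 8 in SV-HUC-1, a J82 ratio of 6.85 (3.23 to 16.7), and hsa_circ_0004664 (to 214228869) had 73 reads in J82, 20 in T24 and 23 in SV-HUC-1 (3.34, 2.07 to 5.60). The longest, hsa_circ_0058040, had 29 reads in J82, 3 in T24 and 17 in SV-HUC-1, lower in T24 than in SV-HUC-1 (0.206, 0.0386 to 0.712). Every SPAG16 circle had its most reads in J82.

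CCDC91, which takes part in traffic from the Golgi, had 145 reads in J82, 55 in T24 and 60 in SV-HUC-1 (J82 ratio 2.55, 1.87 to 3.50). From the start at chr12:28458581, the long circle hsa_circ_0008250 (85763 bases) had 35 reads in J82, 5 in T24 and 3 in SV-HUC-1, a J82 ratio of 12.3 (3.87 to 62.5). The short one, hsa_circ_0007723 (2101 bases), had 68 reads in J82, 19 in T24 and 41 in SV-HUC-1. Its share of CCDC91 reads was 46.9% in J82 (38.6 to 55.4), 34.5% in T24 (22.2 to 48.6) and 68.3% in SV-HUC-1 (55.0 to 79.7). The share of the long circle was 24.1% in J82 (17.4 to 31.9) and 9.09% in T24, with 3 reads in SV-HUC-1. A circle from an upstream start, hsa_circ_0098286, was higher in both cancer lines with 12 reads in J82, 15 in T24 and 3 in SV-HUC-1.

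Other genes of the symbol class followed their own patterns. CCDC134 had 118 reads in J82, 261 in T24 and 230 in SV-HUC-1, with J82 below T24 (0.408, 0.326 to 0.509); its 3 circles share a start. CCDC9 gave 1 circle with 127 reads in J82, 77 in T24 and 65 in SV-HUC-1 (J82 ratio 2.06, 1.51 to 2.82). CCDC66, a microtubule and cilium protein, was lowest in T24 with 46 reads in J82, 17 in T24 and 83 in SV-HUC-1 (T24 ratio 0.239, 0.133 to 0.406). CCDC132, with 38 reads in J82, 10 in T24 and 31 in SV-HUC-1, and CCDC126, with 33 reads in J82, 13 in T24 and 38 in SV-HUC-1, were also lower in T24 than in SV-HUC-1. SPAG9, a scaffold that couples cargo to motors, was within 2-fold at 57 reads in J82, 36 in T24 and 37 in SV-HUC-1, although hsa_circ_0008060 had 10 reads in J82, 4 in T24 and 0 in SV-HUC-1. TTC8 of the BBSome had 14 reads in J82, 4 in T24 and 9 in SV-HUC-1, with an interval of J82 against T24 that included 1 (0.993 to 13.2). CCDC7 was higher in J82 at 36 reads, against 21 in T24 and 12 in SV-HUC-1 (3.16, 1.61 to 6.67), and CCDC50 at 32 reads, against 10 in T24 and 13 in SV-HUC-1.

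Several totals of this class were lower in J82 than in T24. CCDC18 had 5 reads in J82, 11 in T24 and 22 in SV-HUC-1. Its J82 ratio to T24 was 0.411 with an interval that included 1 (0.112 to 1.28), and that to SV-HUC-1 was 0.239 (0.0708 to 0.648). TTC7B, of a lipid kinase complex, had 5 reads in J82, 19 in T24 and 15 in SV-HUC-1, and J82 was below T24 (0.238, 0.0694 to 0.658). CCDC102A gave 1 circle with 2 reads in J82, 14 in T24 and 7 in SV-HUC-1 (J82 to T24 0.129, 0.0142 to 0.562). Within CCDC57, hsa_circ_0046377 (chr17:80085567-80086473) had 1 read in J82, 12 in T24 and 2 in SV-HUC-1, and T24 exceeded SV-HUC-1 (6.998, 1.56 to 64.4). TTC3, a ubiquitin ligase gene, gave a pair of circles from a shared start: hsa_circ_0007488 had 4 reads in J82, 10 in T24 and 2 in SV-HUC-1, and hsa_circ_0007355 had 2 reads in J82, 9 in T24 and 12 in SV-HUC-1. The shorter of the pair was therefore ahead in J82 and T24, and the longer in SV-HUC-1, at few reads. CDK5RAP1 hsa_circ_0006917 had 9 reads in J82, 1 in T24 and 14 in SV-HUC-1, lowest in T24 (0.0833 to SV-HUC-1, 0.00197 to 0.548). Of the class, 6 of 26 host genes compared were higher (23.1%, background 18.4%) and 4 lower (15.4%, background 19.5%) in J82 than in SV-HUC-1. In T24, 2 of 27 were higher (7.41%, background 18.7%) and 3 lower (11.1%, background 22.1%). J82 against T24 gave 7 higher (25%, background 20.7%) and 10 lower (35.7%, background 16.6%) of 28.

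Members shared features that the rule did not use with circRNAs at large. Genomic spans had a median of 5406 bases (interquartile range 2349 to 13126), against 6050.5 over all circRNAs. A circBase ID was given for 267 (89.9%), against 86.2% of all. Of the member host genes, 49 (43.4%) gave a single listed circle, against 46.2% of all host genes. Among the 248 members from genes with several circles, 171 (69.0%) shared a start or an end with another circle of the gene, against 69.4% over all. CEP192, NPHP4 and SPAG16 each had 5 circles from a shared start. Of 41 host genes with several circles and at least 10 summed reads in every line, 25 had the same leading circle in all 3 lines (ties counted as shared). In 16, among them BBS9, CCDC138, CEP350 and KIF24, it differed. Leading circles were not counted over all host genes, so these counts have no background and do not show a trait of the members. Members seen in 1 line were 8.42% of members, near the 9.23% of all circRNAs: 7 in J82, 7 in T24 and 11 in SV-HUC-1, none above 9 reads.

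Genes of the same pathways outside the rule, from fixed lists, gave 53 more host genes. In J82 against SV-HUC-1, 8 of 42 compared were higher (19.0%, background 18.4%) and 5 lower (11.9%, background 19.5%). In T24, 7 of 40 were higher (17.5%, background 18.7%) and 10 lower (25%, background 22.1%). In J82 against T24, 7 of 38 were higher (18.4%, background 20.7%) and 6 lower (15.8%, background 16.6%). CNTRL, centriolin of the mother centriole, was called higher in both cancer lines with 12 reads in J82, 20 in T24 and 4 in SV-HUC-1, although the J82 interval included 1 (0.958 to 13.4). ANKS6, a partner of ciliary nephrocystins, was lower in both with 3 reads in J82, 4 in T24 and 43 in SV-HUC-1. MID1, a microtubule-bound ubiquitin ligase, had 241 reads in J82, 6 in T24 and 230 in SV-HUC-1. CLIP2, a plus-end linker, was highest in T24 with 53 reads in J82, 211 in T24 and 67 in SV-HUC-1. On the cilium list, 4 of 13 were lower than SV-HUC-1 in each cancer line (30.8%, with backgrounds of 19.5% in J82 and 22.1% in T24). The genes differed: ANKS6, EVC2, SMO and TMEM67 in J82, and ANKS6, SDCCAG8, TMEM67 and WDR60 in T24. EVC2 had 0 reads in J82, 42 in T24 and 92 in SV-HUC-1, and SMO had 0 in J82, 42 in T24 and 86 in SV-HUC-1. Intervals of TMEM67 in J82 (0.142 to 1.25) and SDCCAG8 in T24 (0.160 to 1.14) included 1.

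With both cancer lines set against SV-HUC-1 over the whole table, limma called 0 of 4513 circRNAs at an adjusted p under 0.05 and edgeR's quasi-likelihood test, run on whole reads, called 46. At an unadjusted p under 0.05 limma listed 218 circRNAs (4.83%), 2 of them among the 123 members tested, and edgeR 314 (6.96%), 4 of them members. Both fits assume that the lone SV-HUC-1 library varies like the cancer lines. By the fold rule, 7 of 88 members compared in both lines were higher in both (7.95%, background 7.39%): circles of CCDC91, CEP128 (2 circles), KIF3B, TTBK2, TTC13 and TTC28. In both, 5 were lower (5.68%, background 17.0%): circles of CEP128, CEP72, KIF13A, NPHP4 and PCM1.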

How the data were processed

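The authors deposited 1 table of circRNAs with hg19 positions, circBase IDs, host genes and CPM scaled with TMM factors, 1 column per line. Per the submitters' processing notes, the tools were STAR, edgeR, RSEM 1.2.15 and Bowtie2 2.1.0, with hg19 as the build. The circRNA caller, and whether starts count from 0 or 1, are not given in the sources used here. Per the labels' protocols, libraries came from 2 μg of total RNA. The column of SV-HUC-1 spells its name with other letters; 0 value columns were unmatched.

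All deposited CPM values (100%) were whole multiples of 1 read, within 0.01 reads; a read was worth 0.0211 CPM in J82, 0.0234 in T24 and 0.0201 in SV-HUC-1. Listed circRNAs had at least 5 reads in some library. Ratios are of CPM, with exact 95% Clopper-Pearson intervals on the reads. Where a library had 0 reads, a floor of 3 reads was used, with no interval. Folds of log2(CPM + 0.0234) understate differences of low circRNAs. Members were compared from 10 reads in 1 of the 2 libraries. limma 3.58.1 and edgeR 4.0.16 (quasi-likelihood test) were run over the whole table with Benjamini-Hochberg adjustment and tested on simulated data, as were the fold calls. Alternatives were 2 other scalings, a larger pseudocount, no filter and a filter of 20 reads.

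The members, the role groups and the other gene lists were chosen with earlier results of these data known. Named circRNAs are the 10 with the highest mean CPM, the 6 highest and 6 lowest of each comparison, and the circle furthest from the others in the 6 host genes of widest spread; named host genes are the 10 with most reads, the 6 with most circles, and the 6 highest and lowest. Others were named after their values were seen, to describe a role. Sequences of the circles were not analysed here.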

Additional observations from a re-analysis of the deposited data

Results flagged for a closer look

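One circle lay on opposite sides of SV-HUC-1 in the cancer lines. CEP350 hsa_circ_0003942 had a log2 fold of 1.07 in J82 and of -1.11 in T24, from 49 reads in J82, 9 in T24 and 24 in SV-HUC-1. J82 against T24 gave a log2 fold of 2.18, a ratio of 4.92 with a counting interval of 2.39 to 11.4. The difference between the lines was not tested, since each line has 1 library.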

How the results depend on the processing

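Median-of-ratios scaling and scaling by total circRNA reads kept every count of member calls run under them within 1.5 times. The CPM per read under them was 97.2% to 102% of the deposited one, so they could move calls little. A read filter or a larger pseudocount cannot change the sign of a fold. No named circle or host gene called at 2-fold changed sign under any alternative. Member medians near 0 did: on the log2 scale, that of host genes in J82 against SV-HUC-1 (0.00 as reported) was -0.05 with total-read scaling and -0.03 with no filter, and in J82 against T24 it was 0.04 as reported, -0.03 and -0.30. That of circles in J82 against T24 (0.00) was -0.06 with total-read scaling. With a pseudocount 5 times larger, circles lower than SV-HUC-1 numbered 9 in J82 (16 as reported) and 11 in T24 (20), and J82 against T24 gave 15 higher and 15 lower (26 and 27). Host genes then numbered 4 lower in J82 (10) and 6 higher in T24 (12). With no filter on reads, all 297 circles and 113 host genes were compared. Circles then numbered 72 higher and 57 lower in J82, 76 and 62 in T24, and 69 and 83 in J82 against T24. Host genes numbered 23 lower in J82, 23 higher and 18 lower in T24, and 33 lower in J82 against T24. With 20 reads required, 59 circles were compared in J82, 50 in T24 and 55 in J82 against T24, and 51, 50 and 46 host genes. Circles numbered 16 higher and 5 lower in J82, 9 and 9 in T24, and 15 and 8 in J82 against T24. Host genes numbered 4 lower in J82, 7 higher in T24, and 7 lower in J82 against T24. Shares of all circRNAs called lower are not given for these alternatives, so whether member shares stay under them is not shown. In both cancer lines together, edgeR's quasi-likelihood test called 46 circRNAs and 1 member, where limma called 0 and 0. No paired analysis was possible because each line has 1 library; leaving out a library was not run for the same reason, as it leaves no residual degrees of freedom. At this depth 174 members had at most 9 reads in any line, and differences in them were not assessed.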
